A study of Drosophila melanogaster with 2 samples.

Results

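The mitochondrial ribosomal protein genes of Drosophila melanogaster were examined in a ChIP-seq map of the Hox protein Abd-B, which specifies the posterior abdominal segments. The 73 genes are the protein-coding genes whose symbol begins with mRpL or mRpS followed by a digit, out of 13945 protein-coding genes on the 6 main chromosome arms. They comprise 47 genes named for the large subunit (mRpL) and 26 named for the small subunit (mRpS). Chromatin came from whole embryos, 4 to 20 h old, of a transgenic line in which GFP is joined to the C-terminus of Abd-B. The labels describe a precipitation with an antibody against GFP, while their antibody field names Abd-B. The single group held 2 biological replicates, all from tagged embryos. Values from untagged embryos or input chromatin were not analysed here. The embryos were taken whole, so a summit may come from any of their cells. A summit is the base that the authors' lists give as the point of a peak. A gene was counted as having a promoter summit when a summit lay within 1000 bp of any of its transcription start sites (TSSs). The main list is the one the authors kept after an irreproducible discovery rate (IDR) filter, with 5033 peaks, which were the 5033 strongest peaks of the pooled list. The summit lay within 1 bp of the middle of the peak at 67.1% of IDR peaks and 94.4% of pooled peaks. In the replicate 1 and 2 lists it did so at 98.2% and 93.4% of peaks. Peaks were ranked within each list by the authors' signal value, with rank 1 the strongest. With 1 group no test between groups was possible, and no p-values are given. Brackets hold 95% Wilson intervals, which cover the counting of genes only. Genes that share a summit are not independent of each other. The peak lists carry no read counts, so the sequencing depth behind them is unknown.

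Mitochondria translate the few proteins encoded in their own DNA, all core parts of oxidative phosphorylation in animals, on a ribosome of their own. The RNA of this ribosome comes from mitochondrial DNA, whereas its proteins are encoded in the nucleus, made in the cytoplasm and imported. Some of these proteins descend from bacterial ribosomal proteins, and others were added to the mitochondrial ribosome during evolution. The large subunit forms peptide bonds and holds the exit tunnel of the new protein, and the small subunit decodes the messenger RNA.

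The stretches around 6 highly ranked summits that lay between genes are shown, because they lie under some of the strongest peaks of the family. They have IDR ranks of 13 to 345 and a GC content of 26.5 to 40% over 200 bp. Each stretch reaches up to 100 bases to either side of the summit and stops where an annotated exon begins. The sequence is RefSeq's, genome build dm6, written 5′ to 3′ on the strand of the ribosomal protein gene. Capitals mark whole matches, on either strand, to any of the motifs described further on. The motifs are the Abd-B letters TTTATGG or TTTATTG, the Hox core TAATTA, the DRE TATCGATA, the BEAF-32 letters CGATA, the E-box CAGCTG, Motif 1 GGTCACAC, and GCGCATGC, which resembles the site of the mammalian factor NRF-1.
mRpS10, chr3R:15229418-15229618, plus strand: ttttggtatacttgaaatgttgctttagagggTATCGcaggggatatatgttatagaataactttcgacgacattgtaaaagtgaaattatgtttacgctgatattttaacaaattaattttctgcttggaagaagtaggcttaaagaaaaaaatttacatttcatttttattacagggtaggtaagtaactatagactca
mRpS23, chr2L:13835339-13835539, minus strand: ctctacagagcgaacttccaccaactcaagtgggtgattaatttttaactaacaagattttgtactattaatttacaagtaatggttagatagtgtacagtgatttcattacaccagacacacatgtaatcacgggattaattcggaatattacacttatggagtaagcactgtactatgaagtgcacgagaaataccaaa
mRpL47, chr3R:9515909-9516006, minus strand: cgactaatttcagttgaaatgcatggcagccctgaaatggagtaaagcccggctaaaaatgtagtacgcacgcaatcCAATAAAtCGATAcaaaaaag
mRpL24, chr2L:4945389-4945578, minus strand: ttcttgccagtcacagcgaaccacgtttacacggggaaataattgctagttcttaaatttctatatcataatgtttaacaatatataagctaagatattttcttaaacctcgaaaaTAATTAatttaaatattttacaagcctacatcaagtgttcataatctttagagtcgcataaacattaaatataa
mRpS2, chr2L:4850478-4850640, minus strand: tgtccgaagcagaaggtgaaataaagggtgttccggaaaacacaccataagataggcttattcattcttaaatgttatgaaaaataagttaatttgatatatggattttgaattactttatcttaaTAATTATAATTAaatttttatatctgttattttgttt
mRpL20, chr3L:13018041-13018241, minus strand: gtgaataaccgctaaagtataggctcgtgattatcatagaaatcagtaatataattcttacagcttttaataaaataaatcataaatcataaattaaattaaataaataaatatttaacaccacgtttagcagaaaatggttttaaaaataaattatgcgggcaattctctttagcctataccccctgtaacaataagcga
The summit is base 101 of the mRpS10, mRpS23 and mRpL20 stretches, base 29 at mRpL47, base 90 at mRpL24 and base 63 at mRpS2. The mRpS23 and mRpL20 stretches held none of the motifs. The mRpS10 stretch held TATCG, the reverse complement of CGATA, at bases 33 to 37, and that at mRpL24 held TAATTA at bases 117 to 122. The mRpS2 stretch held a pair of adjoining TAATTA matches at bases 127 to 138. The mRpL47 stretch held CAATAAA, the reverse complement of TTTATTG, at bases 78 to 84, with its first base 49 bp from the summit, and CGATA at bases 86 to 90.

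Of the 73 mitochondrial ribosomal protein genes, 34 had an IDR summit within 1000 bp of a TSS (46.6%, 35.6 to 57.9%), against 25.0% of all protein-coding genes (3484 of 13945). Among the 1000 strongest peaks alone, 13 members had one (17.8%, 10.7 to 28.1%), against 7.41% of all genes. The interval of the members' share lay above the share of all genes in both cases. When each summit was given only to the gene with the nearest TSS, 18 members kept one (24.7%, 16.2 to 35.6%), against 17.9% of all genes, which lies inside that interval. The way a summit between neighbouring genes was assigned thus changed the members' count.

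**Figure D1:**
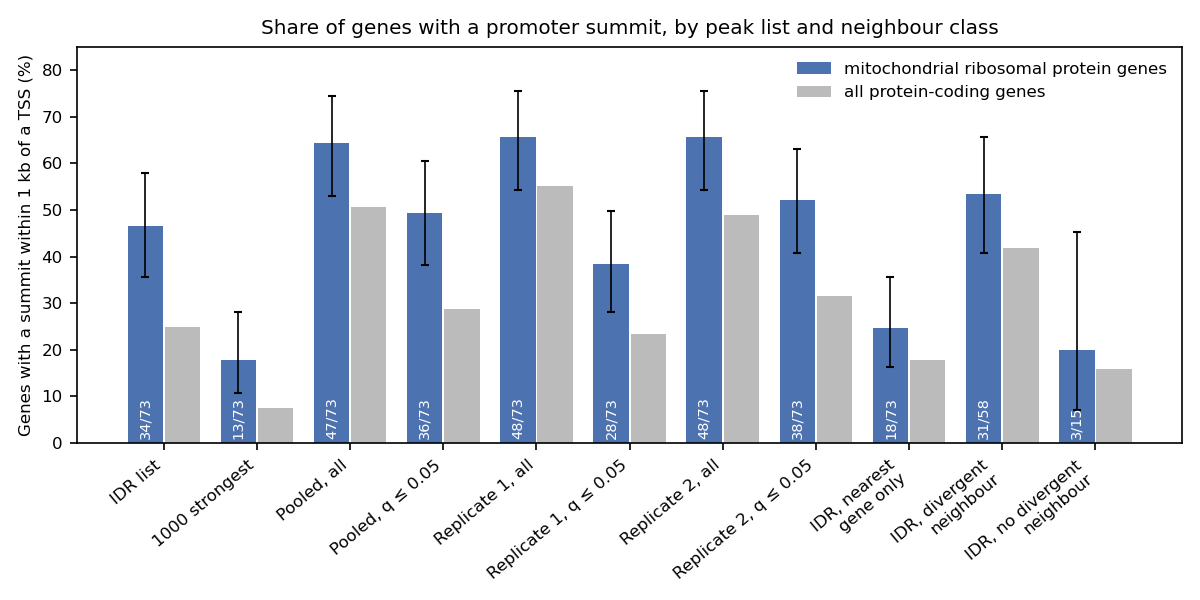
Bars give the percentage of genes with a summit within 1000 bp of a TSS, for the 73 mitochondrial ribosomal protein genes (blue, with 95% Wilson intervals and counts) and for all protein-coding genes (grey, 13945 in all, of which 4914 with and 9031 without a divergent neighbour), in each peak list and by neighbour class. The blue bar is the taller one of each pair, at 46.6% against 25.0% in the IDR list, while the grey bar lies inside the blue interval for the full replicate 1 list, the nearest gene rule and both neighbour classes.

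Most members lie head to head with another gene. A protein-coding neighbour on the opposite strand, with its TSS upstream and within 1000 bp, was present at 58 members (79.5%) and at 35.2% of all genes. Among members with such a divergent neighbour 31 of 58 had an IDR summit (53.4%, 40.8 to 65.7%), against 41.9% of all 4914 genes with one. Among members without, 3 of 15 had a summit (20%, 7.05 to 45.2%), against 15.8% of all 9031 such genes. Both all-gene shares lie inside the members' intervals. Weighted to the members' own mix of these classes, the share of all genes with an IDR summit was 36.5%, against 46.6% of the members, and it too lies inside the members' interval. The distance between the paired TSSs had a median of 306 bp (20 to 793) at the 31 members with a summit and of 242 bp (21 to 637) at the 27 without, against 300 bp over all genes with a divergent neighbour.

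The pooled list and the 2 replicate lists run to 30000 peaks apiece, many of them weak, so shares were also taken at a q-value of 0.05 or less. In the pooled list 47 members had a promoter summit (64.4%, 52.9 to 74.4%), against 50.6% of all genes, and at the q limit 36 members (49.3%, 38.2 to 60.5%), against 28.8%. In the replicate 1 list the counts were 48 members (65.8%, 54.3 to 75.6%), against 55.1% of all genes, and 28 at the q limit (38.4%, 28.1 to 49.8%), against 23.4%. In the replicate 2 list 48 members had one (65.8%), against 48.9% of all genes, and 38 did at the q limit (52.1%, 40.8 to 63.1%), against 31.5%. The members' share was the higher one in each list, and the all-gene share lay inside their interval only in the full replicate 1 list. The pooled list was made from both replicates and contains the IDR list, so these lists do not support each other independently.

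The highest ranked member was mRpL41, which encodes a large subunit protein with no bacterial counterpart. Its peak on 2R from 15217569 to 15217935 (dm6) ranked 3 in the IDR list, with a signal value of 3524, and its summit lay 146 bp upstream of the TSS. It ranked 3 in the replicate 1 list and 3 in the replicate 2 list. The mRpL23 peak, on 3L from 2373426 to 2373776, ranked 31 with a signal value of 2024, and 35 and 31 in replicates 1 and 2. The mRpL23 protein has a bacterial counterpart at the mouth of the exit tunnel, and its gene has 3 annotated TSSs. Its summit lay 54 bp downstream of the nearest one, in the 5′ UTR, unlike those of the other 11 members among the 12 strongest, which were upstream. The mRpL47 peak, on 3R from 9515833 to 9516114, ranked 137 with a signal value of 1139, and its summit lay 70 bp upstream. It ranked 99 in replicate 1 and 179 in replicate 2, and its product is also a counterpart of a protein beside the tunnel exit. The mRpL24 peak, on 2L from 4945341 to 4945632, ranked 188 (signal value 1005), 155 in replicate 1 and 226 in replicate 2, with its summit 128 bp upstream. Its bacterial counterpart acts early in assembly of the large subunit.

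Further large subunit genes among the 12 strongest were mRpL20, mRpL37, mRpL9 and mRpL34. The mRpL20 peak (3L, 13018001 to 13018278) ranked 345 with a signal value of 797 and had its summit 274 bp upstream, with ranks of 406 and 294 in replicates 1 and 2. The mRpL37 peak (3R, 10784091 to 10784327) ranked 350 with a signal value of 795 and had its summit 123 bp upstream, with ranks of 260 and 422. The product of mRpL37 has no bacterial counterpart, whereas those of mRpL9, mRpL20 and mRpL34 do. The mRpL9 peak (3R, 15330560 to 15330801) ranked 434 with a signal value of 715 and had its summit 66 bp upstream, with ranks of 309 and 502. The mRpL34 peak (2R, 16098685 to 16098858) ranked 717 with a signal value of 548 and had its summit 164 bp upstream, with ranks of 571 and 889. For each of these 4 genes the replicate ranks lay on either side of the IDR rank.

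The small subunit was led by mRpS10, whose bacterial counterpart sits in the head of the subunit. Its peak on 3R from 15229352 to 15229724 ranked 13 with a signal value of 2708, with its summit 147 bp upstream of the nearer of its 2 TSSs, and it ranked 14 in replicate 1 and 12 in replicate 2. The mRpS23 peak, on 2L from 13835293 to 13835623, ranked 29 (signal value 2082), 37 in replicate 1 and 27 in replicate 2, with its summit 367 bp upstream. Its product belongs to the proteins added in mitochondria. The mRpS2 peak, on 2L from 4850476 to 4850702, ranked 333 (signal value 810), 373 in replicate 1 and 338 in replicate 2, with its summit 159 bp upstream. The mRpS6 peak, on 3L from 4364320 to 4364539, ranked 588 (signal value 608), 457 in replicate 1 and 682 in replicate 2, with its summit 179 bp upstream. The bacterial counterpart of mRpS6 lies on the platform of the small subunit. The summits of mRpL41, mRpS10, mRpS23 and mRpL23 thus ranked 31 or better, a limit set by these members themselves. No share of all genes was taken at that limit. At mRpS10 and mRpS23 the TSS of another gene was nearer to the summit.

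**Figure D2:**
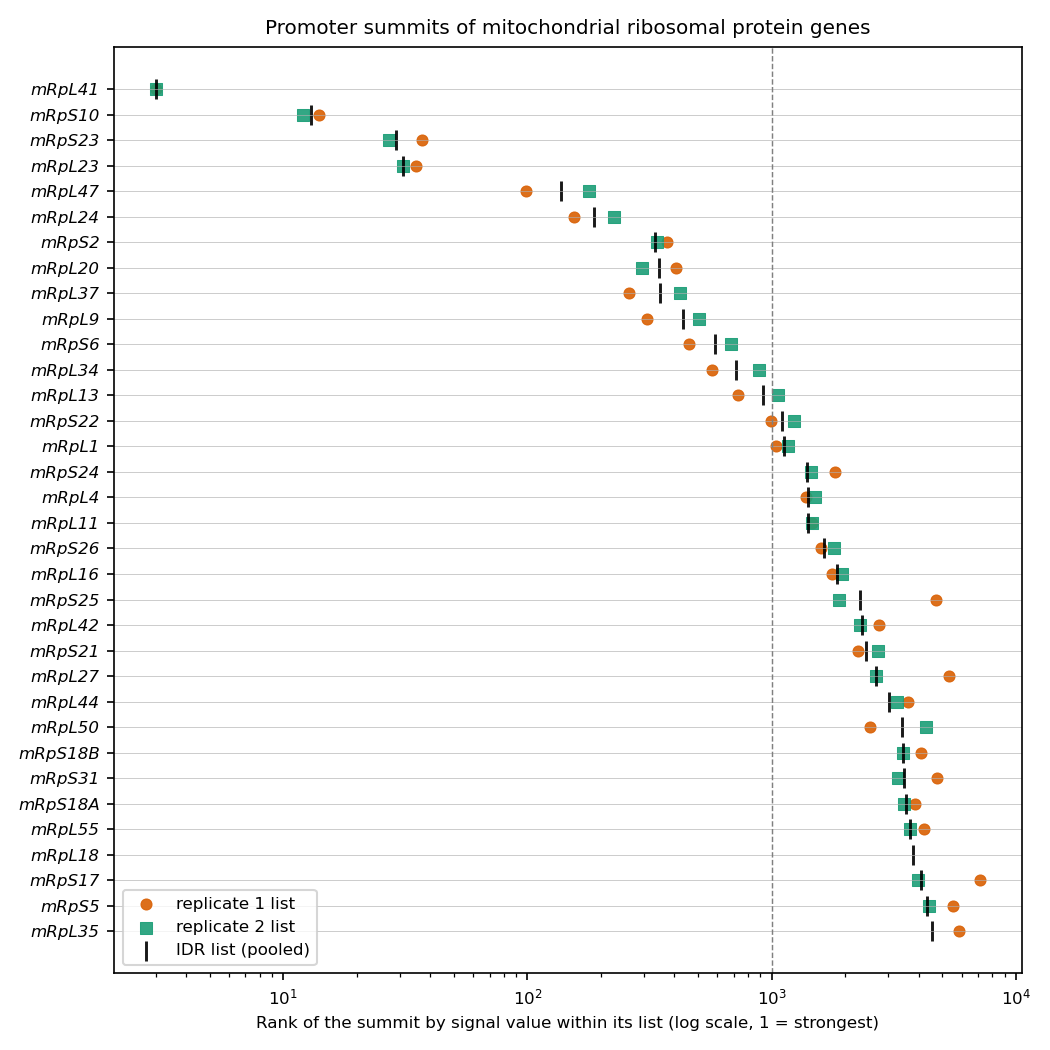
Each row is 1 of the 34 mitochondrial ribosomal protein genes with an IDR promoter summit, and the x axis is the rank of the summit by signal value (log scale) in the IDR list (black tick), the replicate 1 list (orange circle) and the replicate 2 list (green square). The replicate marks stay close to the tick down to a rank of about 1000 (dashed line), and spread apart at weaker members such as mRpS25, which ranked 4702 in replicate 1 and 1887 in replicate 2.

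Ranks ran over nearly the whole IDR list. The median best rank of the 34 members was 1412.5 (quartiles 371 and 3323.75), against 1891.5 (811.25 and 3203.25) for the 3484 genes of all kinds with an IDR promoter summit. Of the 34, 13 were among the 1000 strongest peaks (38.2%), against 29.6% of all such genes. The thirteenth was mRpL13 at rank 921. From rank 1102 to 2436 followed mRpS22, mRpL1, mRpS24, mRpL4, mRpL11, mRpS26, mRpL16, mRpS25, mRpL42 and mRpS21, in that order. The bacterial counterparts of mRpL1 and mRpL11 form or anchor the stalks at either side of the large subunit that contact transfer RNAs and translation factors. The counterpart of mRpL16 lies near the site of peptide bond formation. The order went on with mRpL27, mRpL44, mRpL50, mRpS18B, mRpS31, mRpS18A and mRpL55, at ranks 2675 to 3683. Although named for the small subunit, mRpS18A has a human counterpart that sits in the large one. The 4 remaining members were mRpL18, mRpS17, mRpS5 and mRpL35. At mRpS17, on 2R, the summit ranked 4079 (signal value 180) and lay 138 bp upstream, with ranks of 7158 and 3963 in replicates 1 and 2. At mRpS5, on 3L, it ranked 4323 (signal value 172) and lay 55 bp upstream, with ranks of 5528 and 4401. At mRpL35, on 3R, it ranked 4555 (signal value 166) and lay 322 bp upstream, with a rank of 5830 in replicate 1 and no replicate 2 summit within 100 bp.

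Both replicates had a summit within 100 bp of the best IDR summit for 32 of the 34 members (94.1%, 80.9 to 98.4%), against 91.9% of all genes with an IDR promoter summit. The IDR list was built from these replicates, so this share is set in part by how the list was made. The exceptions were mRpL35 and mRpL18. For mRpL35 the nearest replicate 2 summit lay 180 bp away, at rank 4030. For mRpL18 (IDR rank 3781, signal value 191) the nearest replicate 1 summit (rank 3125) was 118 bp away, and the nearest replicate 2 summit (rank 4283) was 124 bp away. All 34 members thus had a summit in both replicates within 250 bp. Over the 32 members the replicate ranks had a Spearman rho of 0.949, given as a description across genes of the same libraries. Replicate 1 gave the better rank at 15 members, replicate 2 at 16, and 1 was level. The median distance between the IDR summit and its partner was 8 bp in each replicate, and reached 49 bp (replicate 1) and 96 bp (replicate 2) at most. The 13 members among the 1000 strongest peaks ranked no worse than 725 in replicate 1 and 1061 in replicate 2. The other 19 members with both partners ranked as low as 7158 in replicate 1 and 4401 in replicate 2. At a q-value of 0.05 or less in both replicates 27 members had partners. The same count was not made over all genes. At that limit the replicate 1 list held 4333 peaks and the replicate 2 list 8557.

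The summit was upstream of the member's nearest TSS at 31 of 34 members (91.2%, 77.0 to 97.0%), against 87.1% of all genes with an IDR promoter summit. Its median position was 141 bp upstream (quartiles 184.25 and 85 bp), against 149 bp upstream (268 and 73 bp) for all genes. The exceptions were mRpL23, mRpL42, where the summit lay 63 bp downstream in the 5′ UTR, and mRpL27. The best mRpL27 summit (rank 2675) lay 988 bp downstream, in that gene's own 3′ UTR and 250 bp upstream of the cytoplasmic ribosomal protein gene RpL27A. A second summit, rank 4518, was found 105 bp before the mRpL27 start and had a partner in replicate 2 (rank 2974) but none in replicate 1. Of the 34 best summits 26 lay between genes, 7 in a 5′ UTR and 1 in a 3′ UTR. Such places were not counted for the summits of all genes. In 4 of the 7 cases, at mRpL11, mRpS18A, mRpL18 and mRpL35, the 5′ UTR belonged to the neighbouring gene.

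Summits were shared with a second protein-coding gene at 32 of 34 members (94.1%, 80.9 to 98.4%), against 62.4% (60.7 to 64.0%) of all genes with an IDR promoter summit. Only mRpL9 and mRpS5 had a summit within reach of no other protein-coding TSS. A divergent neighbour was present at 31 of these 34 members, and sharing was not compared with other genes that have one. In the gene lists counted further on, sharing was found at 32 of 45 cytoplasmic ribosomal and 20 of 25 respiratory chain genes with a summit. It was found at 4 of 4 synthetases, 1 of 2 translation factors and 1 of 1 mitochondrial transcription genes with a summit. The second gene lay on the opposite strand at 30 members, and at 24 members the summit fell between the diverging TSSs. The member had the nearest TSS at 18 of 34, and another gene did at 16. Of all genes with an IDR promoter summit, 2496 of 3484 had the nearest TSS to a summit. Neither the strand of the second gene nor summits between diverging TSSs were counted over all genes. At mRpL13 the second gene, CG10602, starts at the same annotated TSS on the same strand. Peaks here cannot be assigned to 1 of the paired genes by position alone.

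**Figure D3:**
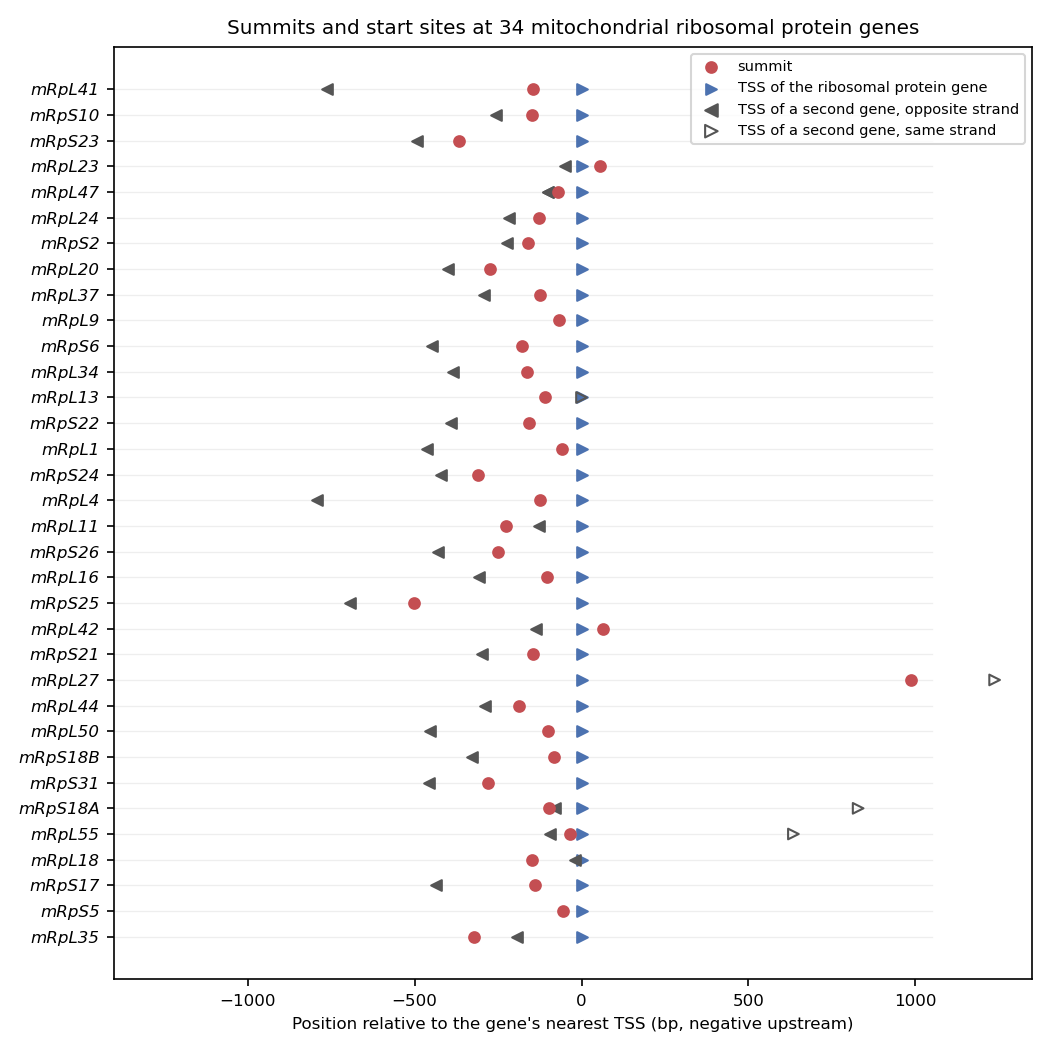
Each row is 1 of 34 mitochondrial ribosomal protein genes, ordered by rank, with its nearest TSS at 0 (blue triangle), the best IDR summit (red circle) and the TSSs of second genes within 1000 bp of that summit (grey triangles pointing in the direction of transcription), in bp. At 24 of 34 members the red circle lies between the blue triangle and a grey triangle that points the other way.

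The second genes of the strongest summits had varied products. The mRpL41 summit lay 616 bp upstream of CG8079. The mRpS10 summit lay 110 bp upstream of Art3, an arginine methyltransferase gene, and nearer to it than to mRpS10. The mRpS23 summit lay 125 bp upstream of CenG1A, which encodes a GTPase-activating protein of Arf proteins. The mRpL23 summit lay 104 bp upstream of CG9004. The mRpL47 summit lay 29 bp upstream of a TSS shared by CG8176 and Kdm3, a histone demethylase gene. The mRpL24 summit lay 90 bp from betaggt-I, which encodes a prenyltransferase subunit, and that of mRpS2 lay 63 bp from Mon1, which acts in endosome maturation. The mRpL20 summit lay 125 bp from Icmt, a carboxyl methyltransferase gene. The mRpS6 summit lay 269 bp from Cip4, a regulator of membrane bending, and that of mRpL34 lay 220 bp from Dg, which encodes dystroglycan. In 6 of the 11 shared cases among the 12 strongest members the TSS of the second gene was nearer to the summit than that of the member.

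Weaker summits were shared in the same way. At mRpL55 the summit lay 62 bp upstream of ATPsynD, which encodes a subunit of the ATP synthase, and 668 bp from cdi. The mRpL35 summit lay 130 bp downstream of the TSS of Mitofilin, which shapes the inner mitochondrial membrane. The mRpL18 summit lay 128 bp downstream of that of Taz, which remodels the mitochondrial lipid cardiolipin, and the mRpL11 summit lay 100 bp downstream of that of HtrA2, a mitochondrial protease gene. Chromatin regulators were the second gene at mRpL16 (trr, 204 bp) and mRpL44 (Snr1, 104 bp). The second genes of the other members were CG5003, CG9626, Apc2, CG4440, CG13698, nmdyn-D6, PIG-N, Droj2, mei-P22, Kua, hzg, CG31460, pch2 and Nop60B, with summits 17 to 926 bp from their TSSs.

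The 39 members without an IDR summit fell into 3 groups, whose sizes were not counted over all genes. In 13 of them a weaker summit was present in the pooled list: mRpS16, mRpL2, mRpL32, mRpL33, mRpL19, mRpL39, mRpL49, mRpL21, mRpL3, mRpL22, mRpL36, mRpL12 and mRpL54, from strongest to weakest. Just below the IDR list stood mRpS16 at pooled rank 5407, with a signal value of 143 and a summit 78 bp upstream, ranked 5373 and 5877 in replicates 1 and 2. Next came mRpL2, whose bacterial counterpart lies at the core of the large subunit, at pooled rank 6272 (signal value 127), 99 bp upstream, with ranks of 12498 and 5090. The mRpL32 summit had pooled rank 7085 (signal value 115) and lay 210 bp upstream, with ranks of 4728 and 10368. Only mRpS16 and mRpL2 reached a q-value of 0.05 or less, and 6 of the 13 had a partner in both replicates. On the other side of the IDR limit, mRpL35 had a signal value of 166. Of the remaining genes 8 had a summit in a replicate list only (mRpL17, mRpL38, mRpL46, mRpS7, mRpS14, mRpS33, mRpS34 and mRpS35). The other 18 had none in any list: mRpL10, mRpL14, mRpL15, mRpL28, mRpL30, mRpL40, mRpL43, mRpL45, mRpL48, mRpL51, mRpL52, mRpL53, mRpS9, mRpS11, mRpS18C, mRpS28, mRpS29 and mRpS30. These include mRpL45, which in mammals anchors the ribosome at the inner membrane, and mRpS29, a GTP-binding protein of the small subunit. The 39 genes lay between 1629 bp (mRpL22) and 45646 bp (mRpS30) from the nearest IDR summit, with a median of 7062 bp, and 15 of them lay within 5 kb. These distances were not taken for other genes without an IDR promoter summit.

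Sequence motifs were counted within 100 bp of the 35 IDR promoter summits of members, which include both mRpL27 summits, and of all 2749 IDR promoter summits. Each was searched on both strands, and CGATA lies inside TATCGATA. The Abd-B letters were present at 5 member summits (14.3%, 6.26 to 29.4%), against 18.0% of all promoter summits. The Hox core TAATTA was present at 10 (28.6%, 16.3 to 45.1%), against 20.2%. The DRE, to which the factor DREF binds, was present at 2 (5.71%), against 7.02%, and CGATA at 11 (31.4%), against 37.2%. The E-box CAGCTG, a form of the sites of basic helix-loop-helix proteins, was present at 6 (17.1%, 8.10 to 32.7%), against 8.69%. Motif 1, GGTCACAC, was present at 1 (2.86%), against 4.55%, and GCGCATGC at 0 of 35 (upper bound 9.89%), against 0.546%. Every all-summit share lay inside the members' interval. The Abd-B matches are shown because the precipitated protein is Abd-B, with the 7 matching letters in capitals and 11 bases on either side, on the strand of the member (RefSeq, dm6).
mRpL47, chr3R:9515912-9515940, minus strand: cgcacgcaatcCAATAAAtcgatacaaaa
mRpL37, chr3R:10784105-10784133, minus strand: catcactaataTTTATTGccgatggggca
mRpL9, chr3R:15330603-15330631, plus strand: agaaatagttgCAATAAAaaaactaaatt
mRpS6, chr3L:4364327-4364355, plus strand: aaactaataatTTTATGGaataacataac
mRpS6, chr3L:4364400-4364428, plus strand: tcttattattgTTTATTGcttttaaagta
mRpS18A, chr3R:8562671-8562699, minus strand: atttgtgcttgCAATAAAaataaaaacag
The match at mRpS18A had its centre 5 bp from the summit, whereas those at the other members lay 30 to 96 bp away. The summits of mRpL41, mRpS10, mRpS23 and mRpL23, the 4 strongest members, had no match to these letters within 100 bp.

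In the promoters themselves, taken from 250 bases before to 50 after the most upstream TSS whether or not a summit was present, the widest gap between members and all genes was that of the E-box. The sequence CAGCTG was present in 40 of the 73 member promoters (54.8%, 43.4 to 65.7%), against 17.7% of all protein-coding promoters and 21.9% of those with a divergent neighbour. Members with a divergent neighbour held it in 31 of 58 cases (53.4%). It was present in 17 of the 34 members with an IDR summit (50%) and in 23 of the 39 without one (59.0%). The 40 promoters held 45 such matches, of which 36 (80%) began within 50 bp of the TSS, against 49.7% of the 2776 matches in all promoters. Their median first base lay 2 bp after the TSS. At the 17 members with a summit the matches lay a median of 151 bp from it, and 4 of 20 lay within 100 bp. With its flanking letters, 28 of the 45 matches (62.2%) read CAGCTGTT on either strand, against 40.2% of the 2744 matches in all promoters that have both flanks. The sequences show matches within 50 bp of the TSS, with CAGCTG in capitals, in windows of 30 bases on the strand of the member (RefSeq, dm6). The first 4 have IDR summits ranked 31 to 333, and the last 4 have no IDR summit and matches close to the TSS. They were picked among the members whose sequence is printed here, which leaves out mRpL41, with a match 9 bp upstream of its TSS.
mRpL23, chr3L:2373715-2373744, minus strand: gtggttgacaatCAGCTGtttaaaacaagt
mRpL47, chr3R:9515873-9515902, minus strand: ttgttattgcttCAGCTGttttgttcggtc
mRpL24, chr2L:4945324-4945353, minus strand: ttcagttctcaaCAGCTGattgcaagccgc
mRpS2, chr2L:4850413-4850442, minus strand: aacactacccacCAGCTGtttaccaaaatc
mRpL46, chr3L:1777426-1777455, plus strand: gtgccgcaaatCAGCTGttccggctctggt
mRpS34, chr3L:16348065-16348094, plus strand: gccagccggcaCAGCTGttcgaccttccct
mRpL33, chrX:4322207-4322236, minus strand: gataggcgcagtCAGCTGttcttcgttcct
mRpL19, chr3R:8674106-8674135, plus strand: atcggtgctgcCAGCTGattatagtgcggc

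**Figure D4:**
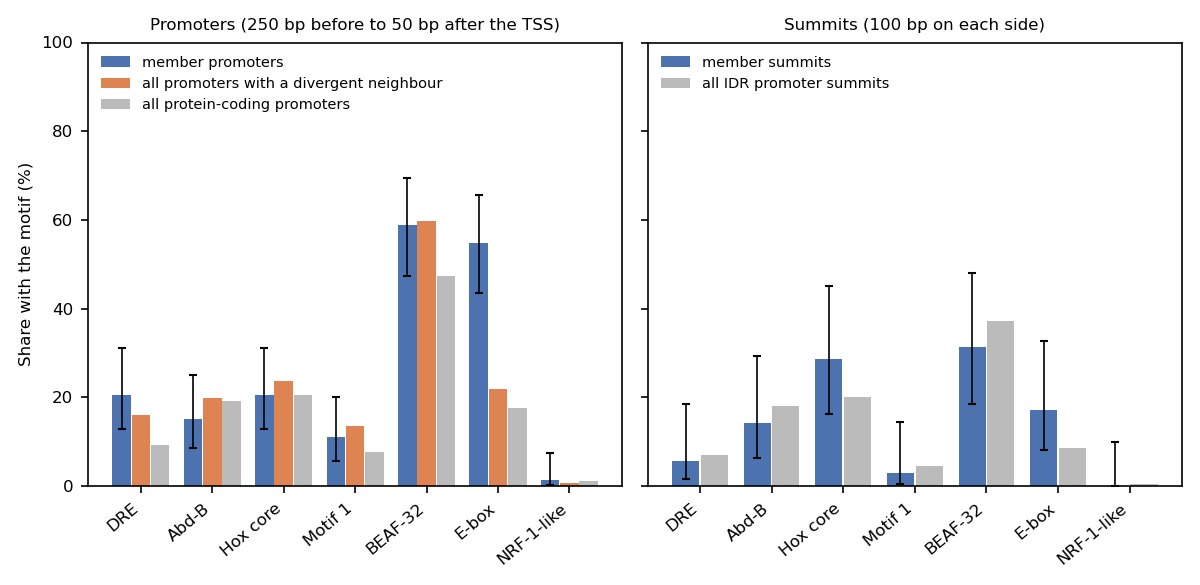
Left, the percentage of promoters with each motif for the 73 mitochondrial ribosomal protein genes (blue, 95% Wilson intervals), for all genes with a divergent neighbour (orange) and for all protein-coding genes (grey). Right, the percentage of IDR promoter summits with each motif within 100 bp, for the 35 member summits (blue) and all 2749 (grey); the E-box bar of the members stands at 54.8% on the left against 17.7% for all genes.

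For the other motifs the gap was smaller. The DRE was present in 15 member promoters (20.5%, 12.9 to 31.2%), against 9.36% of all promoters. Among promoters with a divergent neighbour it was present in 12 of 58 member ones (20.7%), against 16.1% of all. CGATA was present in 43 (58.9%), against 47.4% of all promoters and 59.8% of those with a divergent neighbour, Motif 1 in 8 (11.0%), against 7.70% and 13.5%, and TAATTA in 15 (20.5%), against 20.4% and 23.7%. GCGCATGC was present in 1 (1.37%), against 1.05% and 0.753%. The Abd-B letters were present in 11 (15.1%, 8.63 to 25.0%), against 19.2% and 19.9%. Of these 11 promoters, 9 were among the 34 with an IDR summit (26.5%) and 2 among the 39 without (5.13%). The counts are small, the same split was not made over all genes, and the difference was not tested. Within 100 bp of the summits themselves the Abd-B letters were present at 14.3% of member summits, against 18.0% of all promoter summits. Of the 35 summits, those at mRpL16 and mRpS18B held a DRE within 100 bp. A match to these letters is a description of the sequence and not a measured binding site.

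The member summits were rich in A and T, as promoter summits of this map were in general. Over 200 bp the GC content of the 35 averaged 32.8% (SD 6.50 over summits, 23 to 50%), against 34.6% (SD 7.28) at all 2749 promoter summits. The lowest value was 23% at mRpS6 and the highest 50% at mRpL18. The promoters of members with a summit averaged 35.0% (SD 4.75) and those without one 36.9% (SD 7.18), against 39.1% (SD 7.74) for all promoters.

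Other gene lists that serve mitochondria or translation were counted the same way. The mitochondrial ribosomal protein genes had a summit in 46.6% of cases, with a median rank of 1412.5. The ribosomal protein genes of the cytoplasm had one in 45 of 88 cases (51.1%, 40.9 to 61.3%), with a median rank of 2183. The strongest of the cytoplasmic ones were RpL34b at rank 287 and RpS27 at rank 337. Among the 1000 strongest peaks, 13 mitochondrial and 10 cytoplasmic ribosomal protein genes had a summit. Of 87 respiratory chain and ATP synthase genes 25 had a summit (28.7%, 20.3 to 39.0%), led by ND-MWFE at rank 227 and ND-51 at rank 281. Mitochondrial aminoacyl-tRNA synthetases had 4 of 15 (26.7%, 10.9 to 52.0%), led by LeuRS-m at rank 255 and ProRS-m at rank 2032. Mitochondrial translation factors had 2 of 8, mIF2 (rank 3239) and mEFTu1 (rank 3604), and the mitochondrial transcription list had 1 of 7, the RNA polymerase gene PolrMT (rank 2966). A divergent neighbour was present at 79.5% of the mitochondrial ribosomal genes, against 59.1% of the cytoplasmic ribosomal and 47.1% of the respiratory chain genes. It was present at 6 of 7 genes of the mitochondrial transcription list (85.7%), 46.7% of the synthetases and 25% of the translation factors. The E-box was present in 54.8% of mitochondrial ribosomal promoters, and in 9.09% of cytoplasmic ribosomal promoters (4.68 to 16.9%) and 24.1% of respiratory chain promoters (16.4 to 34.1%). In the shorter mitochondrial lists it was present in 7 of 15 synthetase, 4 of 8 translation factor and 5 of 7 transcription promoters. The DRE was present in 20.5% of mitochondrial ribosomal, 31.8% of cytoplasmic ribosomal and 10.3% of respiratory chain promoters. In the shorter lists it was present in 1 of 15 synthetase, 5 of 8 translation factor and 2 of 7 transcription promoters. No difference between lists was tested.

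Within the family, 20 of 47 genes named for the large subunit had an IDR summit (42.6%, 29.5 to 56.7%). Of the 26 named for the small subunit, mRpS18A included, 14 did (53.8%, 35.5 to 71.2%), and the intervals overlap. The median ranks of these groups were 1269 and 1971.5, and 9 and 4 of their genes stood among the 1000 strongest peaks. Split by protein number, 13 of 31 genes with high numbers (from L37 and S22 up) had a summit (41.9%, 26.4 to 59.2%), and 21 of 42 with low numbers did (50%, 35.5 to 64.5%). High numbers include most of the proteins with no bacterial counterpart. By chromosome arm, a summit was present at 7 of 12 members on 2L (58.3%, 32.0 to 80.7%), against 24.1% of all genes there, and at 5 of 12 on 2R (41.7%, 19.3 to 68.0%), against 22.4%. On 3L it was present at 7 of 17 members (41.2%, 21.6 to 64.0%), against 26.7% of all genes, and on 3R at 13 of 21 (61.9%, 40.9 to 79.2%), against 26.2%. On X it was present at 2 of 11 members (18.2%, 5.14 to 47.7%), against 26.3% of all genes. The all-gene share lay inside the members' interval on 2R, 3L and X, and below it on 2L and 3R. The X-linked ones were mRpL16 and mRpS25, and neither was among the 1000 strongest peaks.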

How the data were processed

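ChIP-seq of Abd-B-GFP in whole embryos was analysed from the authors' deposited peak lists on dm6, per the labels: 1 per replicate, 1 pooled and 1 after the IDR filter. Alignment and peak calling tools, and their settings, were not given in the sources used here. Each list gives, per peak, the authors' signal value, an enrichment measure whose scale is not stated, and the deposited −log10 of a q-value. Signal values served for ranking inside each list alone, with ties ordered by q-value and position. Differences in depth between replicates were not corrected. The depth is unknown. The 1 replicate 2 peak and 1 pooled peak off the 6 main arms were left out, and coordinates are 1-based.

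Summits were compared with every TSS of the Ensembl release 115 annotation (BDGP 6.54), and a summit counted for each gene within 1000 bp. Replicate partners were summits within 100 bp. Sequence came from the RefSeq Release 6 assembly, and motifs had to lie wholly within their window. The second gene at 1 member is not reported here. Of the comparison lists, the symbol mEFG2 was not matched. The members and lists were chosen with earlier results of these data known. Every member was named, with full values for the 12 with the highest ranked summits, the 3 weakest in the IDR list and the 3 strongest below it. Summit-centred sequence was shown for 6 highly ranked members whose summit lay outside exons. The assignment of summits to genes was tested on simulated data, where all 200 genes behind 200 simulated peaks were recovered. The simulated summits were planted inside the window, so this checked the code and not which of several neighbouring genes a summit belongs to. Alternatives were other windows, TSS rules, distances and lists, and each replicate alone. Software was matplotlib 3.10.9, scipy 1.17.1, pandas 2.3.3 and numpy 2.4.6 under Python 3.11.15.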

Additional observations from a re-analysis of the deposited data

How the results depend on the processing

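Of 45 alternative settings over 8 results, 30 left the value about where it was and 15 moved it. Counts were called about the same within a ratio of 1.5. Other values were called so within the SD of the values from each replicate alone. Only the median position carries a sign, so no other result could turn direction, and it stayed upstream. The number of members with an IDR promoter summit was 34, and it was 18 when a summit counted only for the gene with the nearest TSS and 13 among the 1000 strongest peaks. With each replicate alone it was 34 to 36. The number with a shared summit was 32, against 12 among the 1000 strongest peaks and 1 (mRpL13, tied with CG10602) under the nearest gene rule, which leaves shared summits only for ties by its construction. The median position was 141 bp upstream, as a signed distance -141, against -146 among the 1000 strongest peaks. The median rank was 1412.5, against 333 among the 1000 strongest peaks, where it cannot exceed the limit, and 1490 to 1530 with each replicate alone. The DRE was present at 2 member summits within 100 bp, at 0 within 50 bp, at 5 within 200 bp and at 0 among the 1000 strongest peaks. The mean GC content was 32.8%, against 31.1% over 100 bp, 35% over 400 bp, 30.2% among the 1000 strongest peaks, and 31.6 to 33.0% with each replicate alone. Apart from the changes fixed by a setting's own construction, the cause was not tested. No paired analysis was possible because there is 1 group and no second one to pair with. Without read counts or a control, counts of genes limit the precision.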

Other observations

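At mRpS7, whose bacterial counterpart lies in the head of the small subunit, replicate 2 had a strong summit that no other list held. It ranked 541 of 30000 with a signal value of 424, and it lay 172 bp upstream of the TSS, at 10386490 on 2L. Its −log10 q of 3.94 is the highest value in the replicate 2 list and was also reached at rank 4306 (mRpL50). Of the 1000 strongest replicate 2 peaks, 7 had no pooled summit within 250 bp, and 5 of those 1000 had none in replicate 1 or the pooled list.

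At mRpL17 both replicates had a summit that the pooled list did not hold. It lay 300 bp upstream in replicate 1 (rank 4707, q of 0.0732) and 298 bp upstream in replicate 2 (rank 3552, q of 0.000115), so the positions differed by a few bases. The latter q-value is the lowest that the replicate 2 list holds. Among the 5033 strongest peaks, 21 of replicate 1 and 19 of replicate 2 had a summit in the other replicate within 250 bp but none in the pooled list. At mRpS14 there was a replicate 1 summit at rank 4458, 127 bp upstream, but none in replicate 2 or the pooled list. Its q-value was 0.0553. The other 5 such members had ranks of 8270 to 27509.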
